A study of Bos taurus and Bubalus kerabau with 6 samples.

Results

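The transcripts described here are those of a cattle and buffalo muscle catalogue that stand in 3 coding-potential lists (CNCI, CPAT and CPC) and are missing from the fourth, Pfam. They were chosen by that rule from the deposited table: 1057 of 21069 listed transcripts met it, or 5.02%, at 904 of 15429 loci. The study compared long non-coding RNAs (lncRNAs) in the longissimus, the long back muscle, of 3 native cattle (Bos taurus) from Guangxi and 3 swamp buffalo (Bubalus kerabau), adults aged 12 months. The animals came from 1 slaughterhouse, and the labels give no treatment or genetic change for either group. No column of the table stands for an animal or a species. The table therefore gives no level in any animal, and cattle and buffalo were not compared.

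A lncRNA is a long transcript that is not known to be translated into protein. Because an assembled transcript arrives with no such label, programs judge its sequence. CNCI reads the usage of neighbouring base triplets. CPAT weighs the length and coverage of the open reading frame together with base composition. CPC scores the reading frame and its similarity to known proteins. Pfam gathers families of protein domains, against which the translated transcript is searched. The judgement matters in muscle: lncRNAs take part in the differentiation of muscle cells, and the muscle peptide myoregulin was found in a transcript once annotated as non-coding. In such tables a transcript missing from the Pfam list is usually one with a domain match, but the table itself does not state this and names no domain. The members are therefore called transcripts missing from the Pfam list only, without a reading as coding or non-coding.

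Each transcript name has 2 numbers, that of its locus and that of its isoform, so MSTRG.45916.1 is isoform 1 of locus MSTRG.45916. A locus is a stretch of genome to which the assembly assigned 1 or more transcripts. All values below are complete counts of the table. They carry no replicate error, and transcripts or loci are not replicates of an animal, so no test was made on any difference. The genomic positions, exons, neighbouring genes and sequences of these loci were not analysed here.

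The Pfam list lacked 2192 transcripts in all, and 1057 of them (48.2%) were in the other 3 lists. The corresponding share was 46.5% of the 1387 transcripts lacking in CNCI, 39.1% of the 1769 lacking in CPAT and 32.2% of the 1988 lacking in CPC. Just outside the rule were the transcripts missing from Pfam and from 1 further list. These numbered 369 without CPC, 249 without CPAT and 54 without CNCI. The lists themselves chose the members, so these counts are a description. No listed transcript was missing from all 4 lists, so an isoform in none of them counts as unlisted throughout.

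Most members stood alone among the listed transcripts of their locus, and 79 of these had an isoform number above 1. Of the 1057 members, 697 (65.9%) were the only listed transcript of their locus, close to the 65.5% of the 16236 transcripts found in all 4 lists. The share was lower in the comparable groups, at 45.4% of 645 transcripts missing from CNCI only, 43.1% of 691 missing from CPAT only and 58.8% of 641 missing from CPC only. Counted by locus the members and the transcripts in all 4 lists stood further apart. Of the 904 member loci 77.1% had 1 listed transcript, against 84.4% of the 12603 loci with a transcript in all 4 lists. The loci of the groups missing from CNCI, CPAT or CPC only were lower than the member loci, at 67.7%, 56.9% and 73.8%. The share of members with another member at their locus was the lowest of the 5 groups, a difference that was not tested. A single member was found at 816 loci, and the other 88 loci held 241 members, 22.8% of them. For transcripts in all 4 lists the share at loci with 2 or more of their own kind was 32.6%, and for the groups missing from CNCI, CPAT or CPC only it was 41.4%, 36.5% and 29.2%.

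**Figure D1:**
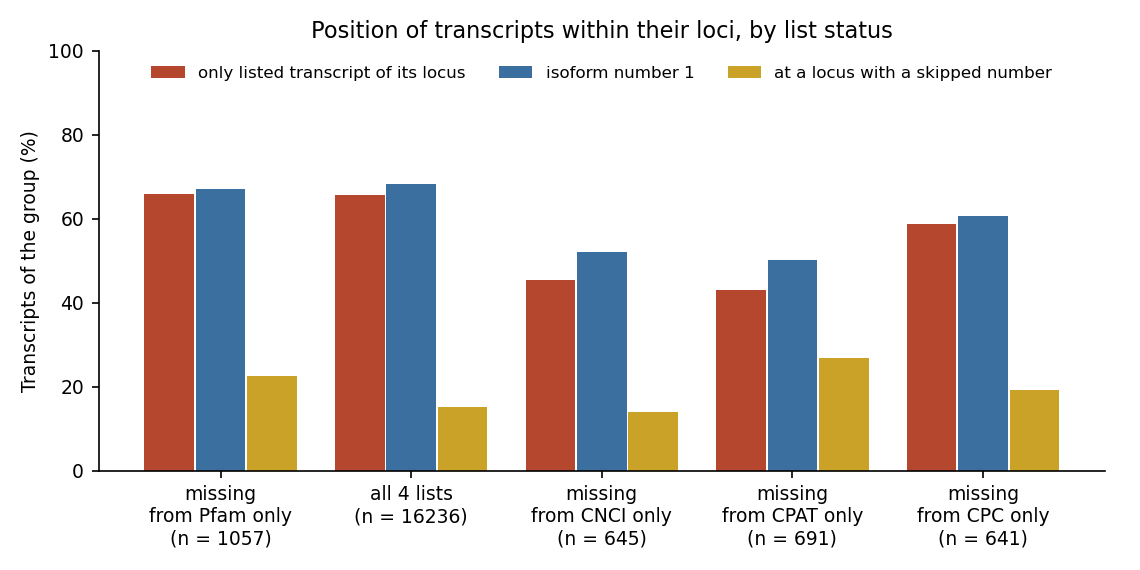
Bars give, for each group of transcripts on the horizontal axis, the percentage that were the only listed transcript of their locus, had isoform number 1, or belonged to a locus with a skipped isoform number. Transcripts missing from Pfam only are close to those in all 4 lists in the first 2 measures (65.9% against 65.5%, and 67.0% against 68.3%) and higher in the third (22.6% against 15.2%).

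Counted by transcript, the isoform numbers of the members resembled those of the transcripts in all 4 lists. Isoform number 1 was held by 708 members (67.0%), against 68.3% of the transcripts in all 4 lists. By locus the groups differed more. Isoform 1 was a member at 708 of 904 loci and in all 4 lists at 11088 of 12603. A further 121 members (11.4%) had number 2, and 61 (5.77%) had number 3. In all 4 lists number 2 made up 11.2% and number 3 made up 4.55%. Numbers above 10 were found in 60 members (5.68%), in 4.50% of the transcripts in all 4 lists and in 5.76% of the whole catalogue. The group missing from CNCI only had 17.2% of its transcripts there. The 3 highest isoform numbers among the members were 89, at MSTRG.199084, 39, at MSTRG.199254, and 34, at MSTRG.142075. These loci had 83, 27 and 30 skipped numbers, that is, numbers below their highest listed one that were not in the catalogue. MSTRG.142075 had 4 listed transcripts, numbered 18, 19, 32 and 34, of which the first 3 stood in all 4 lists and only the last was a member.

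Whether an isoform was assembled under a skipped number and then left out is not given in the sources used here. No transcript in the catalogue was missing from all 4 lists, so an isoform in none of them could be a skipped number. Skipped numbers occurred at the loci of 239 members (22.6%), against 15.2% of the transcripts in all 4 lists and 18.0% of the whole catalogue. By locus the counts were 167 of 904 (18.5%), 1386 of 12603 and, for the whole catalogue, 1928 of 15429 (12.5%). The members did not have the highest share of all groups in this count, which takes no account of how high the isoform numbers ran. It was 26.8% for transcripts missing from CPAT only, 19.2% for CPC only and 13.95% for CNCI only. At the 167 member loci with a skipped number the median was 2 skipped numbers. A single number was skipped at 77 of them, and 83 numbers, the most at any member locus, were skipped at MSTRG.199084.

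Loci with higher isoform numbers have more numbers to skip, so the groups were set side by side at equal highest listed number. At a highest number of 2, 49 of 130 members (37.7%) were at a locus with the other number skipped, against 20.3% of 1944 transcripts in all 4 lists. At 3 the shares were 46.2% of 78 members and 23.6% of 839. At 4 they were 51.3% of 39 members and 27.3% of 597. At 5 to 10 they were 67.5% of 80 members and 46.4% of 1831. The gap was small at 11 or more, with 71.4% of 112 members against 69.8% of 1242. Transcripts missing from CPAT only were below the members in each class, at 25.2%, 25.4%, 32.5%, 48.5% and 58.2% in the same order. Those missing from CNCI only or from CPC only were also below the members in each class. A locus without skipped numbers can add more listed transcripts to its group, so the loci were also counted once each. In that count the member loci were still above the loci of transcripts in all 4 lists at 2 (43.4% against 31.7%), 3 (58.8% against 37.7%) and 4 (57.7% against 46.2%). They were lower at 5 to 10 (68.6% against 71.5%) and at 11 or more (84.4% against 89.1%). The number of member loci behind these shares was 113, 51, 26, 51 and 45. Among the groups missing from CNCI, CPAT or CPC only, the sole share by locus above that of the member loci was CPC only at 5 to 10 (72.2%).

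**Figure D2:**
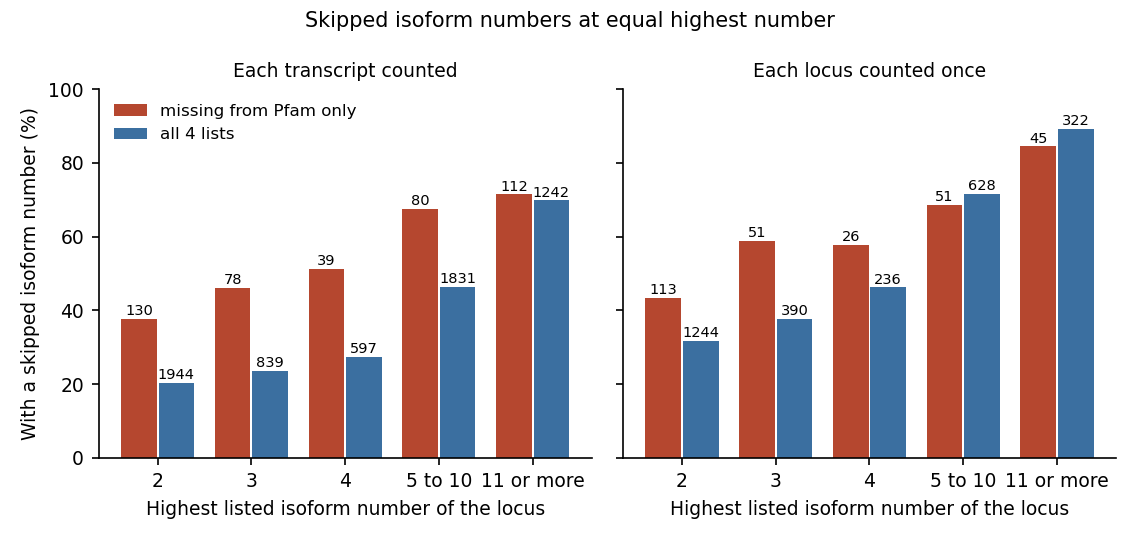
Vertical axes give the percentage of transcripts (left) or loci (right) with a skipped isoform number, by the highest listed isoform number of the locus, and the number above each bar is how many transcripts or loci it covers. Members exceed the transcripts in all 4 lists in each class on the left, whereas on the right they are higher at 2, 3 and 4 and lower at 5 to 10 and at 11 or more.

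The skipped numbers mostly lay below the members, a position that their definition partly fixes. A skipped number lies below the highest listed one. Where the member was the only listed transcript, as at 79 of the 167 loci with a skipped number, all of them had to lie below it. Of 758 skipped numbers at member loci, 619 (81.7%) were below the lowest member of the locus, 59 were between members and 80 were above the highest. At the loci of transcripts in all 4 lists 86.2% of 7134 were below the lowest of these. Isoform 1 was a member at 708 of the 904 member loci, stood in all 4 lists at 32, had another status at 19 and was not listed at 145. Isoform 1 was thus unlisted at 16.0% of member loci. The share was 9.94% of loci with a transcript in all 4 lists, 9.24% for CNCI only, 18.7% for CPAT only and 14.3% for CPC only.

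At 207 member loci other isoforms were listed as well, and their status was examined next. These loci gave 818 transcripts that were another listed isoform of at least 1 member. Of them 413 (50.5%) stood in all 4 lists, and 361 (44.1%) were missing from Pfam, with or without another list. The catalogue as a whole lacked 10.4% in Pfam. Of the 6599 other isoforms of transcripts in all 4 lists, 80.2% stood in all 4 lists and 6.80% were missing from Pfam. Members themselves made up 241 of the 818 (29.5%), against 5.02% of the catalogue. The remaining transcripts missing from Pfam were mostly still in CNCI: 37 in CNCI and CPAT, 37 in CNCI and CPC, and 26 in CNCI alone. The status of other isoforms uses the same columns as the rule, so these shares are given without a test. Sharing of this kind was also found in the other groups. Another isoform was missing from the group's own list in 39.2% for CNCI only, 35.6% for CPAT only and 47.5% for CPC only, against 6.58%, 8.40% and 9.44% of the catalogue.

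The 207 loci were of several kinds. At 41 loci every listed transcript was a member, 28 with 2 transcripts, 11 with 3, 1 with 4 and 1 with 6. At a further 28 loci every other transcript was missing from Pfam and from another list too. Members and transcripts in all 4 lists, with nothing else, made up 98 loci, and the remaining 40 were other mixtures. A transcript in all 4 lists was thus listed beside a member at 133 loci (64.3%). The share grew with the number listed: 49.5% of 95 loci with 2 listed transcripts, 55.9% of 34 with 3 and 85.9% of 78 with 4 or more. A larger locus has more isoforms among which one can stand in all 4 lists. At the 133 loci with both kinds, the lowest isoform number among them belonged to a member at 72 and to a transcript in all 4 lists at 61. At 52 of these loci, with 1 member and 1 transcript in all 4 lists, the member had the lower isoform number at 37 and the higher at 15. At the other 81 the lowest number belonged to a member at 35 and to a transcript in all 4 lists at 46.

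Pooled over all comparisons, the share of other isoforms that were members was highest at close isoform numbers. Each member was set beside each other listed isoform of its locus, so that a pair of members was counted from both sides. At a distance of 1 number the other isoform was a member too in 194 of 412 such comparisons (47.1%). The share was 44.3% of 271 comparisons at a distance of 2, 32.1% of 430 at 3 to 5 and 20.3% of 582 at 6 or more. With each distinct pair counted once, both isoforms were members in 97 of 315 pairs 1 apart (30.8%), 28.4% of 211 pairs 2 apart, 19.1% of 361 pairs 3 to 5 apart and 11.3% of 523 pairs 6 or more apart. For the comparisons counted from both sides at the loci with 5 to 10 listed transcripts the shares were 43.6%, 36.8%, 31.7% and 23.4% in the same order. The comparisons share transcripts and loci, and loci with many members contribute the most pairs of members. A distance of 6 or more can occur only at loci with high isoform numbers. The shares were not computed by locus or for another group. Whether isoform numbers follow any order along the genome is not given in the sources used here.

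**Figure D3:**
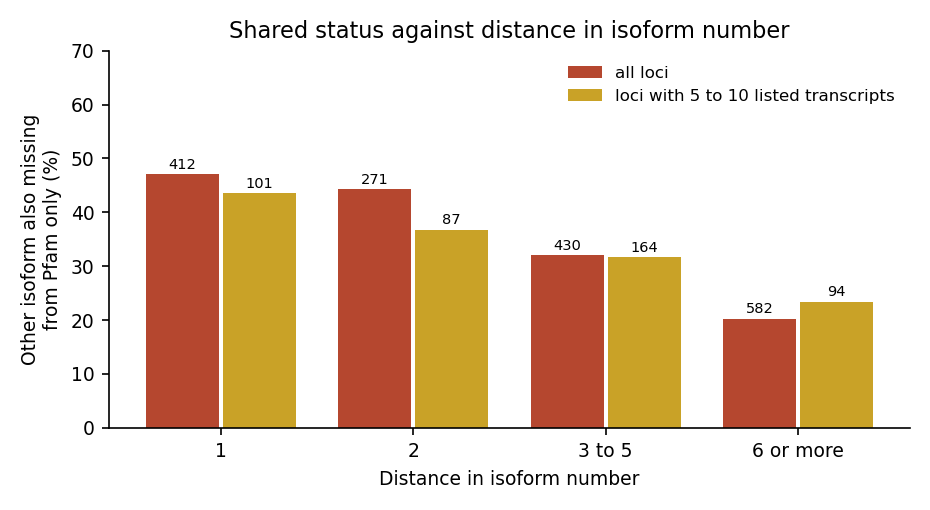
The vertical axis gives, for each member set beside each other listed isoform of its locus, the percentage in which the other was also missing from Pfam only, by distance in isoform number. The number above each bar is how many comparisons it covers, with a pair of members counted from both sides. Over all loci the share is 47.1% for adjacent numbers and 20.3% at a distance of 6 or more.

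The 10 loci with most members held between 4 and 10 each, 58 in all, or 5.49% of the members. At 4 members 3 loci were tied, and MSTRG.45916 and MSTRG.55667 were taken for their lower locus numbers. The third, MSTRG.205122, had 9 listed transcripts, with 4 members, 4 in all 4 lists and 1 of other status. They fell into loci missing from Pfam throughout and loci of mixed status. MSTRG.119879 had 17 listed transcripts with none skipped, of which all 17 stood in CNCI and CPAT, 10 in CPC and none in Pfam. The 10 members were numbers 3, 5 and 10 to 17, and the other 7 were missing from CPC as well. MSTRG.119873 also had 17 transcripts with none skipped and none in Pfam. All 17 stood in CNCI, 16 in CPAT and 6 in CPC, and its 6 members were numbers 9, 10, 11, 14, 16 and 17. The lower numbers of both loci were thus mostly missing from CPC too, and no locus numbered between them, or within 10 on either side, was in the catalogue.

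A further 3 loci among the 10 had no transcript in Pfam. MSTRG.196684 had 9 listed transcripts, 6 of them members, and the other 3 (numbers 1, 2 and 8) were missing from CPAT as well. MSTRG.233668 had 6 listed transcripts, all of them members. Its highest number was 13, so 7 numbers were skipped, with 1 and 2 among them. MSTRG.45916 had 4 transcripts, numbers 1 to 4, and all 4 were members. At these 5 loci absence from Pfam was thus a property of the whole listed locus and not of single isoforms.

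The other 5 were mixed. MSTRG.125975 had 12 transcripts with none skipped: numbers 1 to 4, 11 and 12 were members, 5, 6, 7 and 9 stood in all 4 lists, and 8 and 10 were missing from both CPAT and Pfam. MSTRG.256326 had 11 listed transcripts, of which 6 were members, 4 were missing from CPAT and Pfam and 1, number 15, stood in all 4 lists. MSTRG.30030 had 8, with 5 members (numbers 3 and 5 to 8) and 3 in all 4 lists. MSTRG.120742 had 14 listed transcripts and 13 skipped numbers. Its 5 members, numbers 15, 18, 21, 23 and 26, lay among 6 in all 4 lists and 3 of other status. MSTRG.55667 had 23 transcripts with none skipped, of which numbers 16, 18, 20 and 21 were members and the other 19 stood in all 4 lists.

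**Figure D4:**
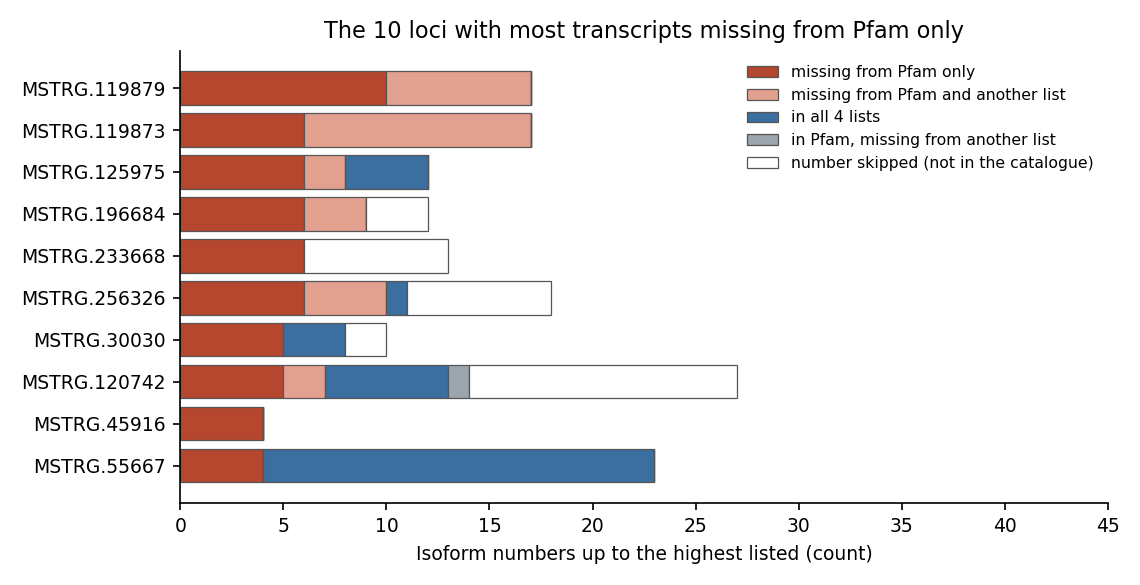
Each bar is a locus, its length the highest listed isoform number, divided into members, transcripts missing from Pfam and another list, transcripts in all 4 lists, transcripts in Pfam but missing from another list, and skipped numbers. MSTRG.119879, MSTRG.119873, MSTRG.196684, MSTRG.233668 and MSTRG.45916 have no transcript in the Pfam list, and MSTRG.55667 has 19 of 23 in all 4 lists.

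Loci made up of members only were small. After MSTRG.233668 and MSTRG.45916, those named by the rule for such loci were MSTRG.11997, with members 1, 2 and 4 and number 3 skipped, and MSTRG.31490 and MSTRG.49693, each with members 1, 2 and 3. At the other end were large loci with 1 member. MSTRG.181460 had 17 transcripts with none skipped. Its member was number 2, and the other 16 stood in all 4 lists. MSTRG.222464 had 13 listed transcripts, with member 8 among 12 in all 4 lists, and MSTRG.52176 had 14, with member 31 among 13. At MSTRG.48505 member 23 stood beside 9 in all 4 lists and 4 that were in CPAT only. MSTRG.199084, with 19 listed transcripts up to number 102, had member 89 beside 10 in all 4 lists and 8 of other status. At MSTRG.181460, MSTRG.222464 and MSTRG.52176 the member therefore differed from every other listed isoform in the Pfam list and in no other list.

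Whether locus numbers follow genome order is not stated in the labels or the table, so near numbers below need not mean near positions. Members were spread over the whole range of locus numbers, from 496 to 282278 where the catalogue ended at 282431. In 20 bins of equal width the share of members among listed transcripts ran from 3.48% (39 of 1120, locus numbers 240067 to 254187) to 7.80% (80 of 1025, locus numbers 112973 to 127093). The highest bin held MSTRG.119873, MSTRG.119879, MSTRG.120742 and MSTRG.125975. Without the 10 loci with most members its share was 5.49%. By locus the shares ran from 4.15% to 7.28%, and another bin, locus numbers 225945 to 240066, was highest.

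**Figure D5:**
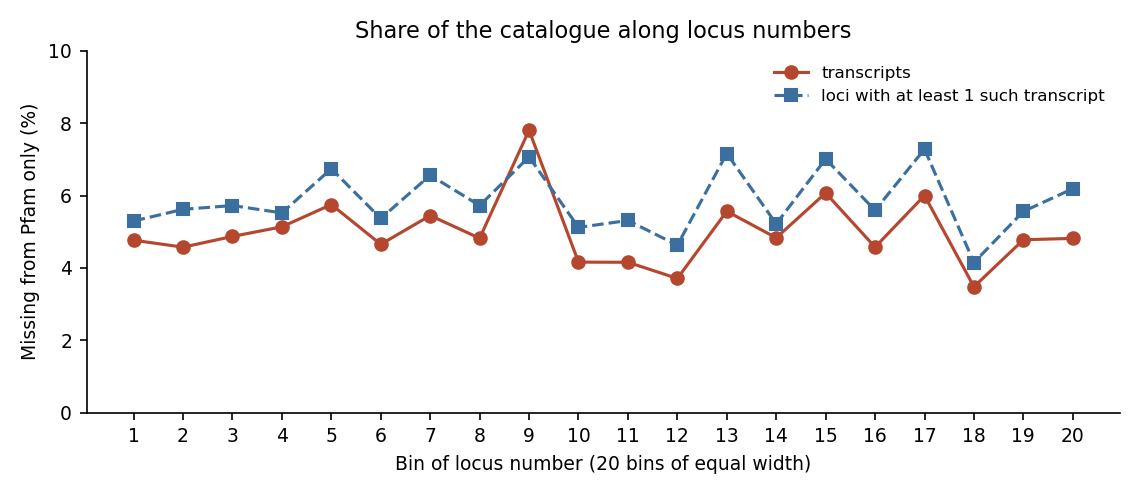
The horizontal axis gives 20 bins of locus number and the vertical axis the percentage of transcripts (circles) or loci (squares) missing from Pfam only. Transcripts peak at 7.80% in bin 9, whereas loci range from 4.15% to 7.28% with the highest value in bin 17.

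Among the loci numbered next to a member locus, the share of member loci was above that in the catalogue. Where the next locus number was in the catalogue, it was a member locus in 12 of 118 cases (10.2%), while member loci made up 5.86% of all loci. Within 5 numbers above a member locus the count was 48 of 477 (10.1%). The other groups were also above their share of the catalogue in this measure: within 5 numbers it was 7.86% for CNCI only, 8.17% for CPAT only and 5.71% for CPC only, where these made up 2.81%, 3.396% and 3.31% of all loci. The longest run of listed loci that all held a member was 5: MSTRG.233422, MSTRG.233423, MSTRG.233424, MSTRG.233427 and MSTRG.233429. In MSTRG.233422 isoform 1 was a member and isoform 2 stood in all 4 lists, and each of the other 4 had a single listed transcript, a member with number 1. There were 7 runs of 3 and 60 runs of 2, and 758 member loci had no member locus next to them in the catalogue.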

How the data were processed

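Ribosomal RNA was removed and second-strand cDNA digested before sequencing, per the labels' protocols. The tools named in the submitters' processing notes are TopHat2 2.0.14, Cufflinks and Trim Galore. Whether any of them assigned the locus and isoform numbers is not stated. Neither the genome build nor the versions and cut-offs of CNCI, CPAT, CPC and Pfam are stated: each is not given in the sources used here. The deposited table, in which the authors repeat a transcript's identifier in a list's column or write NA (checked for every cell), holds no counts or expression values, so read depth is unknown. It covers all 6 animals together. A second deposited file, of gene pairs, shares no identifier with it and was not used.

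Statuses, isoform numbers and loci were counted with Python 3.11.15, pandas 2.3.3 and numpy 2.4.6, and figures were drawn with matplotlib 3.10.9. The counts of members, member loci, loci with skipped numbers, only listed transcripts and other isoforms were tested on simulated data. The other measures were not tested in this way. The members and measures were chosen with earlier results of these data known. Loci were named by rule: the 10 with most members, the first 5 with 3 or more listed transcripts that were all members, the 5 with most listed transcripts and 1 member, the 3 highest isoform numbers and the longest run. The reference gene table matched 0 loci, and 0 sequences were available in these files. Alternatives changed the list rule, the unit counted, the comparison group and the bins.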

Additional observations from a re-analysis of the deposited data

How the results depend on the processing

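No paired analysis was possible because the table has no column for an animal, and no alternative leaves out a replicate for the same reason. Of 53 alternatives over 13 results, 20 stayed close to the reported value (within 1.5 times for a count, within a 95% interval for a share or difference), 27 moved beyond it and 6 reversed a difference. The interval serves only as a yardstick. Of these alternatives, 8 were chosen after seeing the data.

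Counting every transcript missing from Pfam gave 2192 in place of 1057. Members that were the only listed transcript made up 77.1% by locus and 69.98% without loci of more than 10 listed transcripts. Isoform number 1 made up 75.8% of the members of a locus on average over loci, and 88.7% at loci with 1 listed transcript. The share at a locus with a skipped number was 18.5% by locus, 11.3% at loci with 1 listed transcript, and 37.7%, 46.2%, 51.3% and 69.8% at highest listed numbers of 2, 3, 4 and 5 or more. Without loci of more than 10 listed transcripts, members were 35.6% of other isoforms. The highest bin of locus numbers gave 6.02% with 10 bins, and without the 10 loci with most members the highest was 6.07% and the same bin 5.49%.

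The differences below are in percentage points, members minus the comparison group. For the only listed transcript the difference of 0.40 from transcripts in all 4 lists became -7.34 by locus, and 20.5, 22.8 and 7.13 against those missing from CNCI, CPAT or CPC only. For isoform number 1 the difference of -1.31 became 14.9, 16.9 and 6.30 against the same groups. For skipped numbers the difference of 7.39 became -4.16 against CPAT only and 3.42 against CPC only. It was 17.4, 22.6, 24.0 and 13.9 at highest numbers of 2, 3, 4 and 5 or more, 3.26 at loci with 1 listed transcript, and by locus 11.7, 21.1, 11.5 and -1.43 at the same highest numbers. Weighting by locus or restricting the loci changes what is counted, and exchanging the comparison group changes what the members are set against. Why the groups differ was not tested.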
